A study of Mus musculus with 4 samples.

Results

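The genes described here are 10 genes of fat storage and fatty acid handling, chosen by symbol from the 55401 gene identifiers of a count table: Adipoq, Fabp4, Plin1, Plin2, Plin4, Pparg, Lpl, Cd36, Dgat2 and Pnpla2. They were measured by RNA-seq in pancreatic tissue taken next to tumours of Panc02 cells, a mouse line of pancreatic ductal adenocarcinoma, in mice with a conditional knockout of CRFR1, labelled CRFR1-KO, and in wild-type mice, labelled WT, with 2 libraries per genotype. CRFR1 is a receptor for the stress peptide corticotropin-releasing factor. The sources used here do not give the Cre driver behind the conditional allele or the strain, age and sex of the mice. Nothing in the labels ties each library to its own animal, so every p-value below reflects spread among these libraries that may be technical.

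Fat is stored as triacylglycerol in lipid droplets, which are coated by perilipins and are filled and emptied by a small set of enzymes. Adipocytes hold one large droplet and make adiponectin and perilipin 1, while most other cells, acinar cells of the pancreas included, hold small droplets coated by other perilipins. Fatty acids reach these cells through lipoprotein lipase at the capillary wall, the transporter CD36 and intracellular binding proteins. Endothelial cells and macrophages also make CD36 and such binding proteins.

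Total counts lay between 63495457 and 70074733 in the CRFR1-KO libraries and between 69960284 and 71203640 in the WT libraries. Acinar genes took 83.9% to 85.4% of the counts in CRFR1-KO and 81.9% to 84.8% in WT, so the tissue was mainly exocrine pancreas. Crhr1, the targeted gene, had a count of 0 in all 4 libraries, so it gave no check of the genotype labels. A count of 0 allows up to 3 counts, or 0.0458 to 0.048 CPM (the count scaled to a common library size) in the CRFR1-KO libraries and 0.0363 to 0.0458 CPM in the WT libraries. Such limits cover counting error only. They take each deposited count as 1 sequenced fragment, which is not settled, as described under the processing. The WT libraries each stood apart for some genes. WT 2 was over 2-fold above each of the other 3 libraries for 200 of 15131 tested genes (1.32%), and WT 1 was so for 277 genes (1.83%), beside 0.681% for CRFR1-KO 1 and 0.734% for CRFR1-KO 2.

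The stretches of 250 bases before the RefSeq transcription starts of Plin4, Plin2 and Cd36 are shown because these genes gave 3 different library profiles below: Plin4 was high in WT 2, Plin2 was highest in WT 1, and Cd36 was lower in both CRFR1-KO libraries. They are in build GRCm38.p6, on the minus strand, at chr17:56109783-56110032 for Plin4, chr4:86670060-86670309 for Plin2 and chr5:17835897-17836146 for Cd36, and are printed 5′ to 3′ with the half-site AGGTCA, or its reverse complement, in capitals. PPARs, a family of nuclear receptors to which the Pparg product belongs, bind pairs of this half-site.
Plin4: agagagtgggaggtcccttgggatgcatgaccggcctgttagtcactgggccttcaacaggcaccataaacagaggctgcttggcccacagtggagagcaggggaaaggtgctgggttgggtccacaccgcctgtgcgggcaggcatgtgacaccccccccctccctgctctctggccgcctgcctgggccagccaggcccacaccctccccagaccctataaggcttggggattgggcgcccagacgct
Plin2: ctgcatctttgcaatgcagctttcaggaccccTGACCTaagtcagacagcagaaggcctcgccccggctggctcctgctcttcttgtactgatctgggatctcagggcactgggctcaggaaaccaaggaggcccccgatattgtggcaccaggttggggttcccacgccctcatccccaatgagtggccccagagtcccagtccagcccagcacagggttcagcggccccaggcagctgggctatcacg
Cd36: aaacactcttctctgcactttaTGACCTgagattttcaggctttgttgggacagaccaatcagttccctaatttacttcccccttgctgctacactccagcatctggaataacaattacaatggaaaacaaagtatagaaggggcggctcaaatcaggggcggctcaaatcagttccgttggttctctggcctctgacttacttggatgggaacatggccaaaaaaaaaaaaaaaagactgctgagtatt
The half-site lay 218 bases before the Plin2 start and 228 bases before the Cd36 start used. Both were on the strand opposite to the gene, and the Plin4 window had none. The Cd36 window lies within the annotated span of the gene, 17781690 to 17888801, so it precedes an internal start. Of the 3 Pparg windows, 2 held it, 28 and 9 bases before their starts. RefSeq windows were matched for 7 of the 10 genes, in 9 windows, of which 4 held the half-site on either strand, against 14.0% of all 32851 windows of this length. The pair of half-sites AGGTCANAGGTCA, the sterol regulatory element TCACNCCAC and the glucocorticoid receptor palindrome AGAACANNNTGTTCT, each searched on both strands, had 0 matches in the 9 windows, and were in 0.0335%, 1.05% and 0.00913% of all windows. Motifs as rare as these would seldom be found in 9 windows, so their absence says little about these genes. The pair contains the half-site, and a match is a run of letters, not a measured site.

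The genes that define adipocytes were at or near 0. Adipoq, which encodes the adipocyte hormone adiponectin (ENSMUSG00000022878; chromosome 16, 23146536 to 23158028, GRCm38), had 0 counts in both CRFR1-KO libraries, against 0 in WT 1 and 8 in WT 2. Plin1, the perilipin of the adipocyte droplet (ENSMUSG00000030546; chromosome 7, 79720218 to 79732903), had 0 counts in both CRFR1-KO libraries, against 4 in WT 1 and 0 in WT 2. Neither passed the filter on low counts, and neither difference was detectable at this depth.

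Of the 18 adipocyte markers listed, these 2 included, 10 had at most 12 counts in every library, 15 had at most 52, and 3, Lipe, Gpd1 and Acvr1c, had at least 130 in every library. Lep, encoding leptin, and Adig, encoding adipogenin, had 0 counts in all 4 libraries. Retn, encoding resistin, had 0 counts in both CRFR1-KO libraries, against 4 and 0 in WT. Cfd, encoding the adipokine adipsin, had 0 and 4 counts in CRFR1-KO, against 8 and 12 in WT. Cidec, a droplet fusion gene, had 0 and 8 counts in CRFR1-KO, against 4 and 0 in WT. Lipe, encoding hormone-sensitive lipase, was present at 138 and 163 counts in CRFR1-KO, against 269 and 130 in WT. Gpd1, encoding a glycerol-3-phosphate dehydrogenase, had 339 and 468 counts in CRFR1-KO, against 458 and 508 in WT. Acvr1c, encoding the receptor ALK7, had 235 and 140 counts in CRFR1-KO, against 278 and 264 in WT. These 3 genes are not restricted to adipocytes. By contrast, Pecam1 of endothelium had 844 and 1074 counts in CRFR1-KO, against 1393 and 897 in WT, Csf1r of macrophages had 377 and 609 in CRFR1-KO, against 1416 and 677 in WT, and Pdgfra of fibroblasts had 334 and 436 in CRFR1-KO, against 707 and 774 in WT. The most restricted adipocyte genes, Adipoq, Plin1, Lep and Adig, thus do not bear out an adipocyte label for these libraries, and the 8 genes with counts in every library are treated below as genes of lipid droplets and fatty acid handling, whatever cells they came from.

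**Figure D1:**
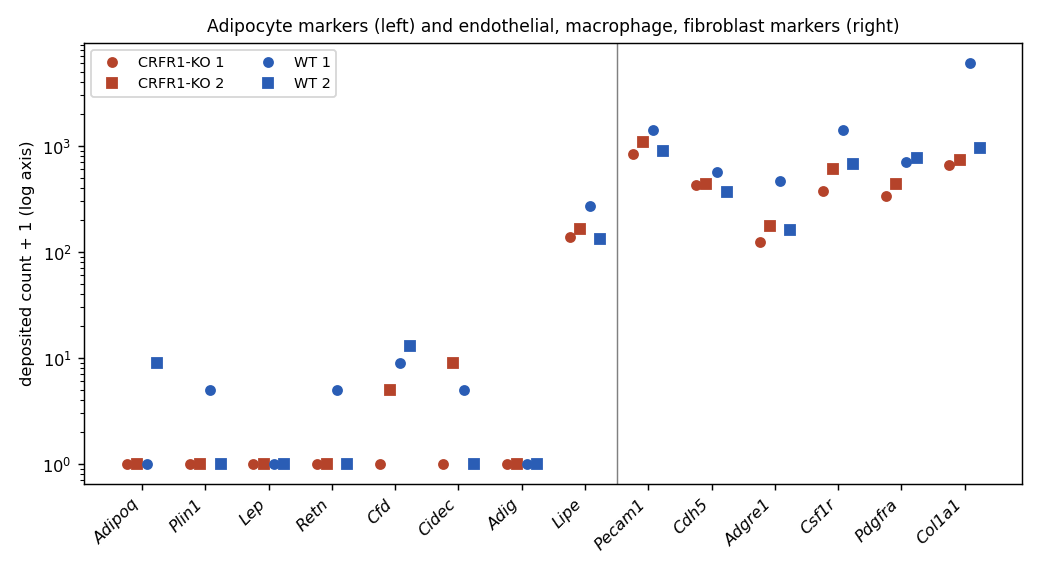
Deposited count plus 1 (log axis) of 8 adipocyte markers, left of the line, and 6 markers of endothelium, macrophages and fibroblasts, right of it, in each CRFR1-KO and WT library. Apart from Lipe, none of the adipocyte markers chosen for the plot exceeds 12 counts in any library, and the markers chosen on the right have at least 123; Gpd1, Acvr1c and scarcer markers of the other cell types are not drawn.

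Of the 8 genes that passed the filter, 0 passed the threshold of the edgeR quasi-likelihood test (Benjamini-Hochberg adjusted p of 0.05), with 2 at an unadjusted p under 0.05, Cd36 and Plin4. The DESeq2 Wald test and limma-voom also called 0, with 3 and 1 at an unadjusted p under 0.05. On simulated tables the edgeR test called 29.7% of 2-fold and 74.2% of 4-fold changes. These rates average over genes of all levels. Each simulated gene had the spread of the fitted trend, so the rates for these 8 genes are not known. A gene not called is thus not shown to be unchanged. In the whole table edgeR called 4 of 15131 genes, or 0.0264%, and 4.86% had an unadjusted p under 0.05. Among the 8, 6 had a log2 fold change below 0, against 50.8% of all tested genes, and for 3 of them, Plin4, Pparg and Cd36, both CRFR1-KO libraries lay below both WT libraries, as they did for 16.9% of all tested genes. Their median log2 fold change was -0.56, against -0.01 over all tested genes. It was -0.29 without WT 2 and -0.81 without CRFR1-KO 2. None of the 10 gene models shares exon bases with another model on its strand in GENCODE M21.

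**Figure D2:**
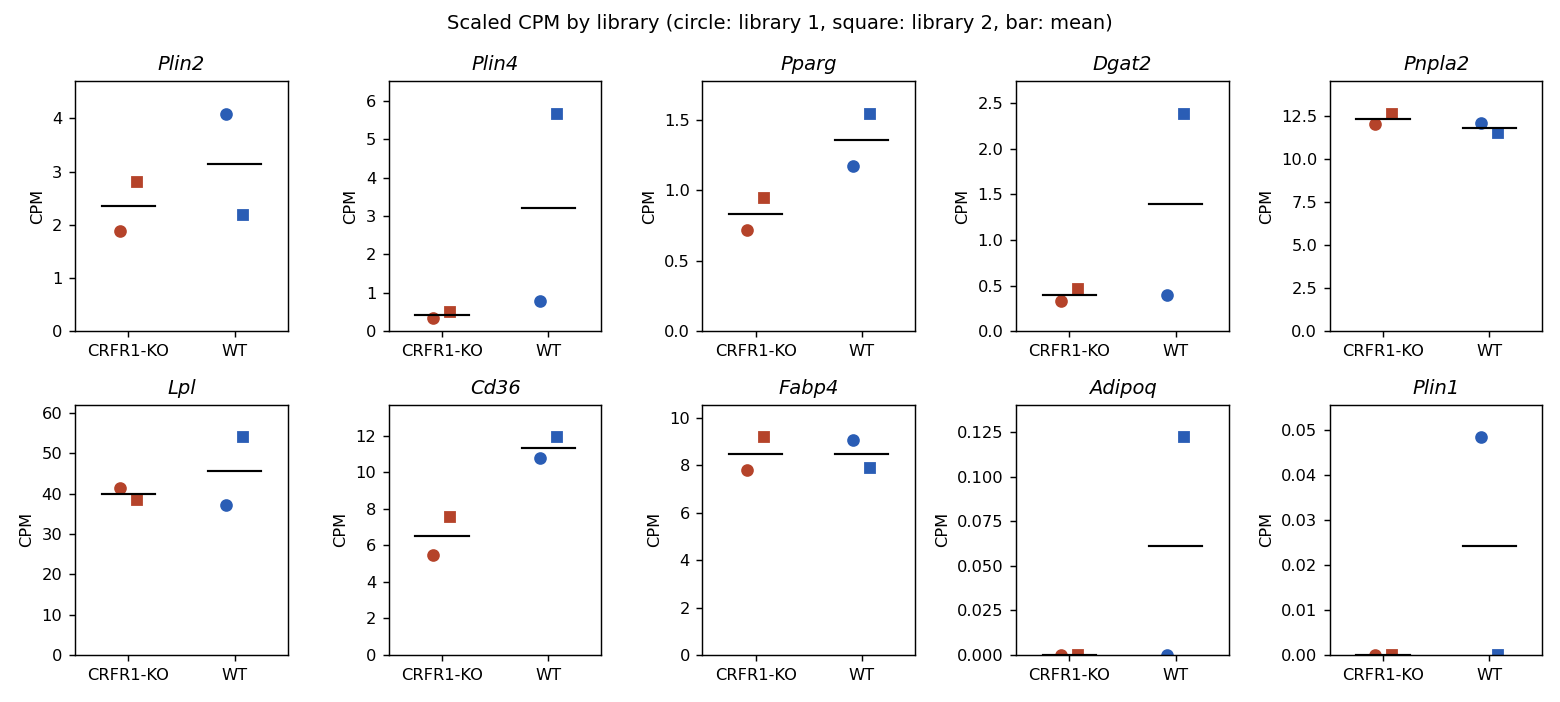
Scaled CPM of the 10 genes in each library, with CRFR1-KO left of WT; circles are library 1, squares library 2 and bars group means. The WT 2 square stands far above the other points for Plin4 (5.67 CPM) and Dgat2 (2.38 CPM), both WT points lie above both CRFR1-KO points for Cd36 and Pparg, and Adipoq and Plin1 reach at most 0.122 CPM.

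Per kilobase of exon, the order of the levels averaged over the 4 libraries ran from Lpl and Pnpla2, at 4.08 and 3.99 CPM per kilobase, through Cd36 (2.49), Fabp4 (1.89) and Plin2 (0.781) to Pparg, Plin4 and Dgat2 (0.371, 0.315 and 0.290). Lpl and Pnpla2 overlapped in WT, where Lpl had 3.56 and 5.15 and Pnpla2 had 3.998 and 3.80. In CRFR1-KO Pnpla2, at 3.98 and 4.18, stood just above Lpl, at 3.95 and 3.66. Their closeness depends on the lengths used, 10478 bases of annotated exon for Lpl against 3020 for Pnpla2. In CPM Lpl ranged from 37.3 to 54.0 over the libraries, against 11.5 to 12.6 for Pnpla2. Cd36 and Fabp4 overlapped across libraries, at 1.53 to 2.10 and 1.74 to 2.05 CPM per kilobase in CRFR1-KO, but not within WT, where Cd36 had 3.01 and 3.32 and Fabp4 had 2.02 and 1.76. The 3 lowest genes overlapped in WT, where Pparg had 0.397 and 0.523, Plin4 0.134 and 0.981 and Dgat2 0.129 and 0.773. They did not in CRFR1-KO, where Pparg had 0.244 and 0.321, Dgat2 0.109 and 0.149 and Plin4 0.0582 and 0.0873, so that Dgat2 stood above Plin4. The annotated exons of Fabp4 cover its whole gene span of 4489 bases, which lowers its level on this scale.

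Among the droplet coat genes, the perilipin genes Plin2 and Plin4 kept the same order over CRFR1-KO 1, CRFR1-KO 2 and WT 1 and parted in WT 2. Plin4, a perilipin of small nascent droplets (ENSMUSG00000002831; chromosome 17, 56100591 to 56109803, GRCm38), had 21 and 33 counts in CRFR1-KO, against 64 in WT 1 and 371 in WT 2. On scaled library sizes this was 0.336 and 0.504 CPM in CRFR1-KO, against 0.774 and 5.67 CPM in WT. WT 2 was thus 7.32-fold above the next library, WT 1, and the groups did not overlap. Plin4 had a log2 fold change of -2.94 by the DESeq2 Wald test (adjusted p = 0.0546) and -2.17 by limma-voom (adjusted p = 0.971). In edgeR its log2 fold change was -2.93 (SE 0.87, edgeR adjusted p = 0.899). It was -0.87 (SE 0.78) without WT 2, and -3.74 (SE 0.38) without WT 1, when Plin4 passed the edgeR threshold (adjusted p = 0.0102). In that fit the lone WT library is assumed to vary as the CRFR1-KO libraries do.

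Plin2, the perilipin of droplets in most cell types (ENSMUSG00000028494; chromosome 4, 86648386 to 86670060), had 118 and 184 counts in CRFR1-KO, against 338 in WT 1 and 143 in WT 2. At 1.89 and 2.81 CPM in CRFR1-KO, against 4.09 and 2.18 CPM in WT, the groups overlapped, with WT 1 the highest library. Its log2 fold change was -0.42 (SE 0.38), and 0.11 (SE 0.38) without WT 1. Per kilobase, Plin2 exceeded Plin4 9.24-fold and 9.17-fold in the CRFR1-KO libraries, against 8.69-fold in WT 1 and 0.634-fold in WT 2. The balance of the 2 perilipins was therefore close in 3 libraries and turned round in WT 2.

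Dgat2, which encodes an enzyme of the last step of triacylglycerol synthesis (ENSMUSG00000030747; chromosome 7, 99153658 to 99182719), shared the WT 2 peak. It had 21 and 30 counts in CRFR1-KO, against 33 in WT 1 and 156 in WT 2, which is 0.336 and 0.458 CPM in CRFR1-KO, against 0.399 and 2.38 CPM in WT. WT 1 lay between the CRFR1-KO libraries, and WT 2 was 5.20-fold above the next library. The log2 fold change was -1.80 (SE 0.83, edgeR adjusted p = 0.9999), and -0.0028 (SE 0.96) without WT 2. Dgat1, the other enzyme of this step, had no such peak, at 3.92 and 4.03 CPM in CRFR1-KO, against 4.37 and 3.13 CPM in WT (log2 fold change 0.08, SE 0.25). Per kilobase, Dgat2 stood at 0.085 and 0.113 times the Dgat1 level in CRFR1-KO, against 0.0906 times in WT 1 and 0.754 times in WT 2. Plin4 and Dgat2 were thus 2 of 8 tested genes over 2-fold above all other libraries in WT 2, beside 1.32% of all tested genes.

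By the distance of their library profiles on the log2 scale, the 5 genes nearest to Plin4 among 5733 named genes with a mean of at least 5 CPM were Srebf1, Rpl7a, Fkbp5, Slc7a5 and Lrrc75b, over 4 libraries. Srebf1, which encodes the transcription factor SREBP-1 of fatty acid synthesis, was nearest (root mean square distance 0.28), with 13.0 and 13.9 CPM in CRFR1-KO, against 14.9 CPM in WT 1 and 59.4 CPM in WT 2. Fkbp5, a glucocorticoid-induced gene, had 2.67 and 3.94 CPM in CRFR1-KO, against 4.004 and 11.5 CPM in WT (distance 0.45). Dgat2 lay at a distance of 0.44, as near as these genes, whereas Plin2 lay at 1.26. Distances were taken on log2(CPM + 0.5), which narrows the profiles of genes as low as Plin4 and Dgat2. A small distance is therefore not an equal fold. In CPM, WT 2 was 7.32-fold above the next library for Plin4, against 3.98-fold for Srebf1. Rpl7a, a ribosomal protein gene, shares exons with other models, which had at most 1 count in any library. The 5 genes were chosen for this profile, so their WT 2 peak, 2.31-fold to 3.98-fold over the next library, is part of the choice.

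**Figure D3:**
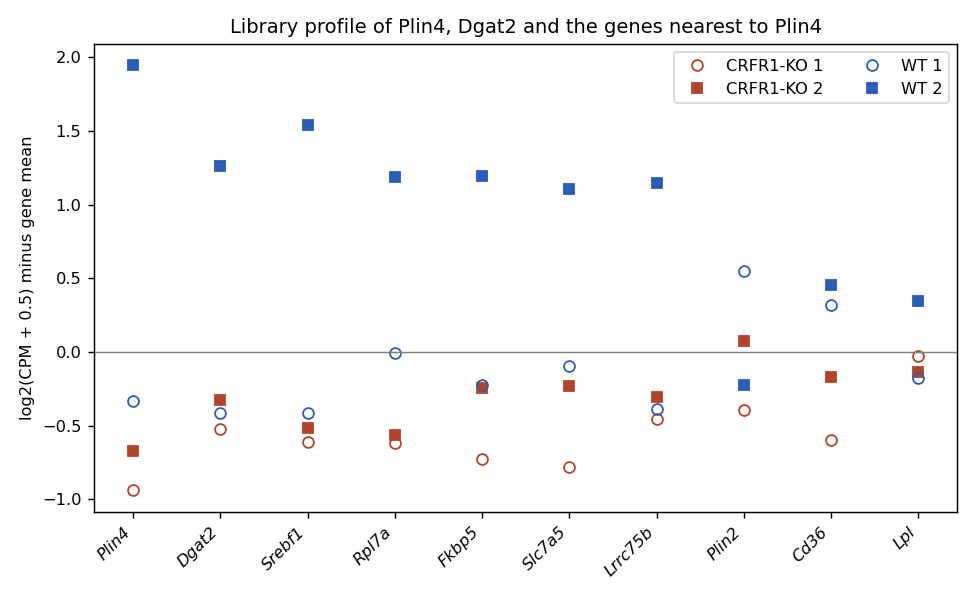
Deviation of log2(CPM + 0.5) from the gene's mean over the 4 libraries, for Plin4, Dgat2, the 5 genes nearest to Plin4, and Plin2, Cd36 and Lpl; red marks are CRFR1-KO and blue marks WT, open for library 1 and filled for library 2. The filled blue WT 2 mark stands alone at the top for Plin4 through Lrrc75b and below the open WT 1 mark for Plin2.

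In droplet breakdown, Pnpla2, encoding adipose triglyceride lipase, which takes the first fatty acid off triacylglycerol (ENSMUSG00000025509; chromosome 7, 141455198 to 141460743), had the smallest ratio of highest to lowest library among the 8 genes, at 1.10-fold in CPM. Its counts were 752 and 826 in CRFR1-KO, against 998 and 752 in WT, which is 12.03 and 12.6 CPM in CRFR1-KO, against 12.1 and 11.5 CPM in WT. The groups overlapped, and the log2 fold change of 0.06 was below its SE of 0.16, turning to -0.06 when scaled on library totals. Abhd5, the activator of this lipase, had 7.12 and 8.08 CPM in CRFR1-KO, against 6.62 and 6.005 CPM in WT (log2 fold change 0.27, SE 0.19). G0s2, its inhibitor, had 0.992 and 1.19 CPM in CRFR1-KO, against 1.58 and 1.77 CPM in WT (log2 fold change -0.62, SE 0.36). The genotypes did not overlap for either partner, and neither passed the edgeR threshold. Both CRFR1-KO libraries lay above both WT libraries, as for Abhd5, in 16.6% of all tested genes, and below them, as for G0s2, in 16.9%. Per kilobase, Pnpla2 exceeded G0s2 by 3.50-fold and 3.05-fold in CRFR1-KO, against 2.20-fold and 1.87-fold in WT.

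Among the genes of fatty acid entry, Cd36 encodes a fatty acid transporter and scavenger receptor (ENSMUSG00000002944, chromosome 5, 17781690 to 17888801). Cd36 had the smallest unadjusted p of the 8 in the edgeR fit of all 4 libraries. By the DESeq2 Wald test Cd36 followed Plin4 (unadjusted p = 0.0032, against 0.00023). Its counts were 343 and 494 in CRFR1-KO, against 892 and 779 in WT, a level of 6.52 ± 1.46 CPM in CRFR1-KO and 11.3 ± 0.8 CPM in WT (SD, n = 2 libraries each). Both CRFR1-KO libraries lay below both WT libraries. Its log2 fold change was -0.80 (SE 0.21, edgeR adjusted p = 0.801). It lay between -1.04 and -0.59 when any single library was left out, and at -0.72 without WT 2 and -0.87 without WT 1.

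Macrophages, endothelial cells and adipocytes all express Cd36, and in bulk tissue fewer cells of a type cannot be told apart from less RNA per cell. Macrophage markers moved with it: 12 of 12 had a log2 fold change below 0 (median -0.87; 0 past the threshold in edgeR, DESeq2 or limma-voom, 5 at an unadjusted edgeR p under 0.05), and their summed level was 48.5 and 77.4 CPM in CRFR1-KO, against 134 and 98.9 CPM in WT. Fibroblast markers did so too, with 12 of 12 below 0 (median -0.71; 0 past the threshold in edgeR or limma-voom, 1, Mfap5, in DESeq2, and 7 at an unadjusted edgeR p under 0.05) and summed levels of 154 and 170 CPM in CRFR1-KO, against 413 and 222 CPM in WT. Over all tested genes, 50.8% were below 0 and 4.86% had an unadjusted edgeR p under 0.05, and DESeq2 called 57 of 15131. Without WT 1, 12 macrophage and 10 fibroblast markers were below 0, with medians of -0.50 and -0.61. Without WT 2, all 12 of each were below 0, with medians of -1.11 and -0.49. Endothelial markers did not move with Cd36, with 5 of 12 below 0 (median 0.14) and summed levels of 86.2 and 95.7 CPM in CRFR1-KO, against 91.9 and 86.5 CPM in WT. No marker in these 3 lists was at 0 in all libraries. Their part in the Cd36 difference was not tested. The macrophage sum was highest in WT 1 and Cd36 in WT 2. The fibroblast sum was highest in WT 1 with Col1a1 and Col3a1 and in WT 2 without them, at 91.2 and 101 CPM in CRFR1-KO, against 133 and 148 CPM in WT for the other 10 markers.

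**Figure D4:**
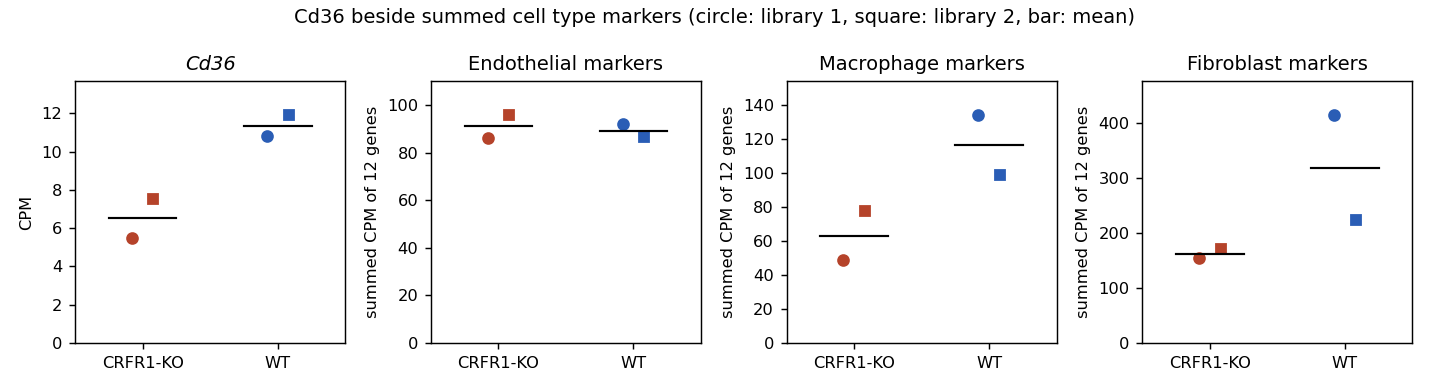
Cd36 (CPM) and the summed CPM of 12 endothelial, 12 macrophage and 12 fibroblast markers in each library, with CRFR1-KO left of WT; circles are library 1, squares library 2 and bars group means. For Cd36, macrophages and fibroblasts both CRFR1-KO points lie below both WT points, and endothelial levels overlap at 86.2 to 95.7 CPM.

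Lpl, encoding lipoprotein lipase, which frees fatty acids from circulating triacylglycerol (ENSMUSG00000015568; chromosome 8, 68880491 to 68907448), was the most highly counted of the 10 genes. It had 2589 and 2513 counts in CRFR1-KO, against 3083 and 3531 in WT, which is 41.4 and 38.4 CPM in CRFR1-KO, against 37.3 and 54.0 CPM in WT. The groups overlapped on scaled sizes, since WT 1 was the lowest library and WT 2 the highest. The log2 fold change was -0.19 (SE 0.22), and 0.10 (SE 0.18) without WT 2. Gpihbp1, which encodes the endothelial anchor of the lipase, had 1.12 and 1.62 CPM in CRFR1-KO, against 1.29 and 1.30 CPM in WT (log2 fold change 0.08, SE 0.38).

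Fabp4, a fatty acid binding protein gene of adipocytes, capillary endothelium and macrophages (ENSMUSG00000062515; chromosome 3, 10204088 to 10208576), had 488 and 601 counts in CRFR1-KO, against 751 and 516 in WT. At 8.49 ± 0.97 CPM in CRFR1-KO and 8.48 ± 0.85 CPM in WT (SD, n = 2 libraries each), the groups overlapped and the log2 fold change was 0.0012 (SE 0.19). Fabp4 was thus present in every library in tissue where Adipoq and Plin1 had at most 8 counts.

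Pparg, which encodes the nuclear receptor that drives adipocyte formation (ENSMUSG00000000440; chromosome 6, 115360951 to 115490399), had 45 and 62 counts in CRFR1-KO, against 97 and 101 in WT. At 0.720 and 0.947 CPM in CRFR1-KO, against 1.17 and 1.54 CPM in WT, the groups did not overlap. The log2 fold change was -0.70 (SE 0.43) and did not pass the edgeR threshold. It lay between -0.90 and -0.49 when any single library was left out. Macrophages also express Pparg. The macrophage and fibroblast marker sums given beside Cd36 were lower in both CRFR1-KO libraries too, and their part in the Pparg difference was not tested. The macrophage sum was highest in WT 1 and Pparg in WT 2.

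**Figure D5:**
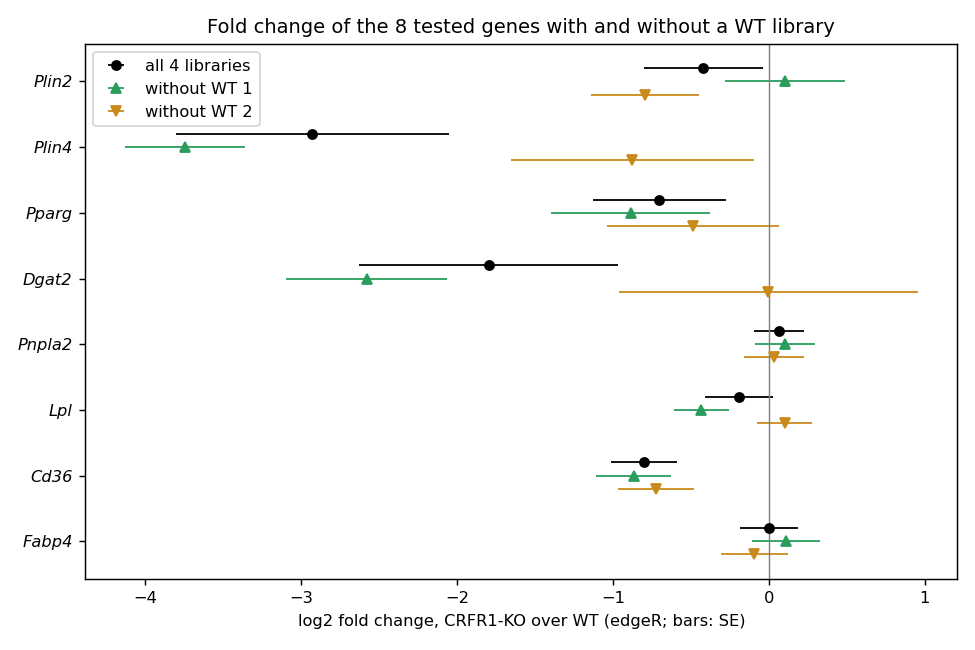
Log2 fold change, CRFR1-KO over WT, from edgeR for the 8 tested genes with all 4 libraries, without WT 1 and without WT 2; bars are SEs. Plin4 and Dgat2 move toward 0 without WT 2, to -0.87 and -0.0028, Plin2 and Lpl change sign with the WT library left out, and Cd36 stays between -0.87 and -0.72.

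Of the 72 other genes of fat storage listed, 57 were tested, with a median log2 fold change of -0.10 and 35 below 0. Of these, 0 passed the threshold in edgeR, DESeq2 or limma-voom, with 4, 2 and 3 at an unadjusted p under 0.05. In edgeR, 4.86% of all tested genes had such a p, and 50.8% were below 0. Without WT 1 edgeR called 1, Srebf1. In the list of other droplet coat and lipolysis genes, 7 of 14 tested were higher and 7 lower (median log2 fold change -0.01, and 0.12 without WT 1). Bscl2, encoding the droplet assembly protein seipin, had 15.5 and 15.3 CPM in CRFR1-KO, against 12.3 and 11.2 CPM in WT (log2 fold change 0.38, SE 0.16), and was the only one at an unadjusted p under 0.05. Rab18, a droplet-bound GTPase gene, stood at -0.23 on the log2 scale. In triacylglycerol synthesis, 3 of 10 tested genes were higher and 7 lower (median -0.10, and 0.11 without WT 1). The phosphatidate phosphatase genes Lpin1 and Lpin2 stood at -0.38 and -0.29, and the acyltransferase genes Agpat1 and Agpat2 at 0.27 and 0.23.

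In fatty acid uptake and activation, 6 of 14 tested genes were higher and 8 lower (median -0.13), with the caveolin gene Cav2 at -0.56, the binding protein gene Fabp5 at -0.33, and the acyl-CoA synthetase genes Acsl5 and Acsl3 at -0.23 and -0.48. Among 12 regulators and adiponectin receptors, 4 were higher and 8 lower (median -0.10, and 0.04 without WT 2), with 2 at an unadjusted p under 0.05, Ebf1 and Srebf1. Ebf1, a transcription factor gene of adipocyte precursors and B cells, had 1.09 and 1.31 CPM in CRFR1-KO, against 2.17 and 3.06 CPM in WT (log2 fold change -1.12, SE 0.34). Srebf1 stood at -1.47 (SE 0.55), with the WT 2 peak given above. Cebpa, an adipogenic factor that other epithelia also express, stood at 0.30, and the adiponectin receptor gene Adipor2 at 0.19.

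Of the 16 adipocyte markers other than Adipoq and Plin1, 8 passed the filter, 2 higher and 6 lower (median -0.24, and 0.0005 without WT 2). Slc2a4, encoding the insulin-responsive glucose transporter GLUT4 of fat and muscle, had 0 counts in both CRFR1-KO libraries, against 15 in WT 1 and 41 in WT 2. With each CRFR1-KO library at a floor of 3 counts it was at least 8.61-fold lower in CRFR1-KO than the WT mean, and at least 3.87-fold lower than WT 1 alone. These bounds rest on a floor of 3 deposited counts, whose unit is unknown, and shrink if that floor is set higher. Slc2a4 was the only one of these markers at an unadjusted p under 0.05, and without WT 2 there were 0. The list's median stayed at -0.24 with Slc2a4 at that bound, as it had to, since Slc2a4 was still the lowest of the 8 markers. Trarg1, which encodes a regulator of GLUT4 trafficking, had 0 and 4 counts in CRFR1-KO, against 15 and 12 in WT. Acvr1c stood at -0.33 on the log2 scale, and the glycerol channel gene Aqp7 at 1.02 (SE 1.079), from 16 and 14 counts in CRFR1-KO and 15 and 3 in WT.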

How the data were processed

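Poly(A)-selected RNA was sequenced in 4 libraries, per the labels' protocols with a dUTP-marked second strand. The deposited table holds a whole-number count per Ensembl gene, not normalized by the authors. FastQC, DESeq2 and edgeR are named in the submitters' processing notes, and the sources used here do not give the aligner, counting program, strand setting, annotation or build. A count of 4 was found for 862 to 959 genes per library, a count of 3 for 342 to 383 and a count of 5 for 216 to 244. What a single deposited count stands for is thus not settled. The fits, and so their p-values and SEs, used the deposited counts as they stand. Symbols came from GENCODE M21 (55141 of 55401 identifiers), and 0 sample columns were left unmapped.

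The whole table was fitted in R 4.3.3 with edgeR 4.0.16 (TMM scaling, filterByExpr, a two-sided quasi-likelihood F test, no term but genotype). P-values were adjusted over 15131 genes. The test was tried on 3 simulated tables in which 200 genes were changed, with spread drawn from the fitted trend. It called 29.7% of 2-fold changes, 74.2% of 4-fold changes and 0.0372% of unchanged genes. The SE of a log2 fold change came from its F statistic. A permutation test of 2 libraries against 2 cannot go below an exact two-sided p of 0.333, so none was run. Levels are CPM on scaled library sizes, and per-kilobase levels use exon union lengths. DESeq2 1.42.0, limma 3.58.1 (voom), 3 scalings, leaving out the acinar genes, 2 filters, summed exon-sharing models, a replicate block and fits without 1 library were alternatives.

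The genes and lists were chosen with earlier results of these data known. Named from each list of fat storage genes were up to 4 genes of smallest p, plus fixed partners and markers. Counts for the lists by other tools and without a WT library, fibroblast sums without collagens and the Slc2a4 bound by WT library were added after seeing the data. The motifs, and the genes shown by their promoters, were chosen after their values were seen. Promoter sequences are from RefSeq, GRCm38.p6.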

Additional observations from a re-analysis of the deposited data

How the results depend on the processing

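Depth limits Adipoq and Plin1, which had too few counts for a difference to be detectable. Under the 14 alternatives the count of the 10 genes past the threshold was 0 except without WT 1, when Plin4 passed; over the 4 fits that leave out a library it ranged from 0 to 1 and their median log2 fold change from -0.81 to -0.29. Over all genes the count of 4 became 57 with DESeq2 (13 higher, 44 lower), 0 with limma-voom, 0 with exon-sharing models summed, 7 with a replicate block, and 0 to 69 leaving out a library (40 without WT 1, 69 without WT 2). The labels give replicate numbers but no pairing. The correlation of same-numbered deviations was -0.07, which rests on a single pair of differences and does not settle whether libraries were paired. The block changed no call among the 10 genes.

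The log2 fold change of Fabp4, 0.0012, turned to -0.0019 with DESeq2 size factors, -0.0066 with upper quartile scaling, -0.13 on library totals, -0.0062 with any count above 0, -0.0022 with at least 10 counts in every library, -0.0020 with DESeq2, and -0.0036 with limma-voom, and ranged from -0.11 to 0.115 leaving out a library (-0.093 without WT 2, -0.11 without CRFR1-KO 2). Pnpla2 turned to -0.065 on library totals. Leaving out a library, Plin2 ranged from -0.79 to 0.11, turning without WT 1, and Lpl from -0.43 to 0.10, turning without WT 2. Scaling on library totals moved the median of all genes from -0.0063 to -0.13. Of 112 single-gene values under alternatives, 99 kept their direction and their side of the threshold, 12 turned sign and 1 newly passed.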
